A study of Homo sapiens with 6 samples.

Results

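The genes described here are 34 genes of the cellular response to low oxygen and of glycolysis, chosen by name for their textbook roles, at a time when earlier results of these data were known. They comprise the hypoxia-inducible factor (HIF) subunits HIF1A and EPAS1, the oxygen sensors EGLN1 and EGLN3, well-known HIF-responsive genes, glucose and lactate carriers, and the enzymes of glycolysis with 2 PFKFB regulators. Of the 34 genes, 31 had a row among the 22279 transcripts of the count table and 28 had enough reads to be tested, out of 11712 tested rows in all. BNIP3, ALDOA and PGK1 were not analysed here beyond their promoters.

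RNA was sequenced from LNCaP, an established human prostate cancer line that responds to androgen. The 3 shRB libraries came from cells with a hairpin against RB, the retinoblastoma tumour suppressor, and the 3 shCON libraries from cells with a control hairpin. All 6 samples had 72 h of CDT, named in the labels as the treatment for cell cycle arrest and described for the series as hormone deficient, so hormone loss is shared by both groups. The labels give 1 hairpin name per group, no oxygen level, and no statement that replicates were separate cultures. P-values therefore measure the spread between these libraries, which may be technical, and knockdown cannot be told apart from the particular hairpin or cell population.

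Total counts were 9780579 to 10898768 in shRB and 6115310 to 20091488 in shCON libraries. RB1 itself (ENST00000267163, chromosome 13) measured 5.83, 3.82 and 5.41 CPM (the count scaled to the TMM-normalised library total) in shRB 1 to 3, against 56.6, 52.7 and 54.7 CPM in shCON 1 to 3. All 10 listed luminal markers of prostate epithelium were detected well enough to be tested, with a summed level of 4804 to 5158 CPM in shRB and 5356 to 5620 CPM in shCON. The endothelial markers PECAM1, CDH5 and KDR and the leukocyte markers PTPRC and CD3E were at 0 in every library. The whole leukocyte list of 6 genes summed to 5.22 to 5.41 CPM in shRB and 5.72 to 7.41 CPM in shCON, nearly all of it CD68 (5.08 CPM in shRB and 5.92 CPM in shCON), the 1 member tested, which did not pass. Summed stromal markers, of which 3 were tested and VIM fell, stood at 22.0 to 26.0 CPM in shRB and 42.0 to 49.99 CPM in shCON. VWF, the only endothelial marker with reads, stood at 1.73 to 3.71 CPM in shRB and 8.17 to 10.8 CPM in shCON, and the part of these markers in the results was not tested. In bulk RNA, fewer cells of a kind and less RNA per cell cannot be told apart.

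HIF is a transcription factor made of an oxygen-sensitive alpha subunit (HIF1A or EPAS1) and the stable partner ARNT. When oxygen is present, prolyl hydroxylases of the EGLN family mark the alpha subunit for destruction by the VHL ubiquitin ligase, so HIF activity is set largely at the protein level and not by the HIF1A message. When the subunit accumulates it binds a short DNA word, the hypoxia response element, beside genes for blood vessel growth, glucose uptake, glycolysis and mitophagy. Glycolysis turns glucose into pyruvate in the cytosol, and several of its steps are shared by isozymes encoded by different genes, of which hexokinase 2, PFKP and LDHA are often abundant in tumours. RB restrains E2F transcription factors.

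The promoters are shown for the core of the hypoxia response element. Many of the genes were chosen as HIF-responsive, so this feature is not independent of their choice. Promoter sequences were found in RefSeq (GRCh38.p14) for 31 of the 34 genes, and none is shown for VEGFA, BNIP3L or SLC2A3. The 250 bases upstream of the annotated start are printed 5′ to 3′ on the strand of the gene, with every ACGTG or GCGTG in capitals, read on either strand (so CACGT and CACGC on the printed strand). The palindrome CACGTG counts as 2 overlapping matches. ADM and HK2 are shown as HIF-responsive genes that rose, PFKP as a gene that rose without a match, P4HA1 as a HIF-responsive gene that fell, and LDHA as a gene with several matches that did not pass the test.
ADM, chr11:10304823-10305072, plus strand: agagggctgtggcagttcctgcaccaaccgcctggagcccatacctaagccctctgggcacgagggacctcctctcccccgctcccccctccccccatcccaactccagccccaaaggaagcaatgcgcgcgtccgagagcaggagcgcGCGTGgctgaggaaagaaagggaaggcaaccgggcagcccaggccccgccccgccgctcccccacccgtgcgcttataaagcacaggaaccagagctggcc
HK2, chr2:74833877-74834126, plus strand: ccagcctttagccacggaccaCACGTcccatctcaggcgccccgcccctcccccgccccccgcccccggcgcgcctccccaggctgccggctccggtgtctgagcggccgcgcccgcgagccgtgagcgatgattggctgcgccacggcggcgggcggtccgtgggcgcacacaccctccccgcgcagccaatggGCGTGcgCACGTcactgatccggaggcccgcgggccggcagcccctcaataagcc
PFKP, chr10:3067720-3067969, plus strand: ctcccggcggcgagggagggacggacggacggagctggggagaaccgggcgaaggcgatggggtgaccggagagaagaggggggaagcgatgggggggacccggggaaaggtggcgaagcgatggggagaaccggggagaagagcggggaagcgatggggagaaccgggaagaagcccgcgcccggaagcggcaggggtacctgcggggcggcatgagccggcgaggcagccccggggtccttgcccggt
P4HA1, chr10:73096867-73097116, minus strand: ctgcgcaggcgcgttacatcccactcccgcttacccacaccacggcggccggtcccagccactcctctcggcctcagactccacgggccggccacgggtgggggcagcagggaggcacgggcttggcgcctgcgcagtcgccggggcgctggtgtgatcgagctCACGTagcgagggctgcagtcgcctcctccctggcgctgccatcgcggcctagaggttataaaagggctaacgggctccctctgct
LDHA, chr11:18394313-18394562, plus strand: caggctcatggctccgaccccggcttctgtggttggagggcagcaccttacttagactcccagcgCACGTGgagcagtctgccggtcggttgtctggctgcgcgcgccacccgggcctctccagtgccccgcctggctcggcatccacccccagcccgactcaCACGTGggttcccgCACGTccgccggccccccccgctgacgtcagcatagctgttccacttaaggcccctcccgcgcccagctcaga

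These letters were present in 19 of the 31 promoters (61.3%), against 43.2% of 35116 RefSeq promoters with a window of the same length. The RefSeq promoters were not matched to the genes for GC content. Each gene's window is that of 1 RefSeq entry, not matched to the start of the transcript whose counts were tested. ADM had 1 match, 101 bases before the start, and HK2 had 3, at 229, 55 and 48 bases. P4HA1 had 1 match at 86 bases. LDHA had 5 matches, at 185, 184, 87, 86 and 73 bases, and PFKP had 0. Among the genes by outcome, 2 of 5 that rose held the word, 3 of 4 that fell, and 9 of 17 that did not pass the test. The rest of the matches lay in genes without a test result, 2 of 2 that were not tested and 3 of 3 without a row. The word thus occurred among genes of every outcome, and a match is a description of letters only. The E2F words TTTGGCGC, TTTCCCGC, TTTGCCGC and TTTCGCGC, again on either strand, occurred in 2 of the 31 promoters (6.45%; PFKM and GAPDH), against 2.79% of all promoters.

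Genes of the group were higher and lower in shRB, most of them by small amounts and ADM by a large one. Of the 28 tested genes, 6 rose in shRB (ADM, SLC16A3, HK2, PFKP, VEGFA and LDHB), 5 fell (P4HA1, BNIP3L, EPAS1, PFKL and HK1) and 17 did not pass the test (edgeR quasi-likelihood test, Benjamini-Hochberg adjusted p under 0.05). The 11 that passed are 39.3% of those tested, against a background of 25.3% of all 11712 tested rows, where 12.8% were higher and 12.5% lower. The median log2 fold change of the 28 genes was 0.18, against −0.0062 over all tested rows. The shRB and shCON libraries did not overlap for 18 of the 28 genes, 13 with shRB higher and 5 with shRB lower, against 41.1% of all tested rows (21% with shRB higher and 20.2% with shRB lower). ADM changed by a factor of 4.57, and the other 10 that passed had shRB to shCON ratios between 0.642 and 1.63.

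**Figure D1:**
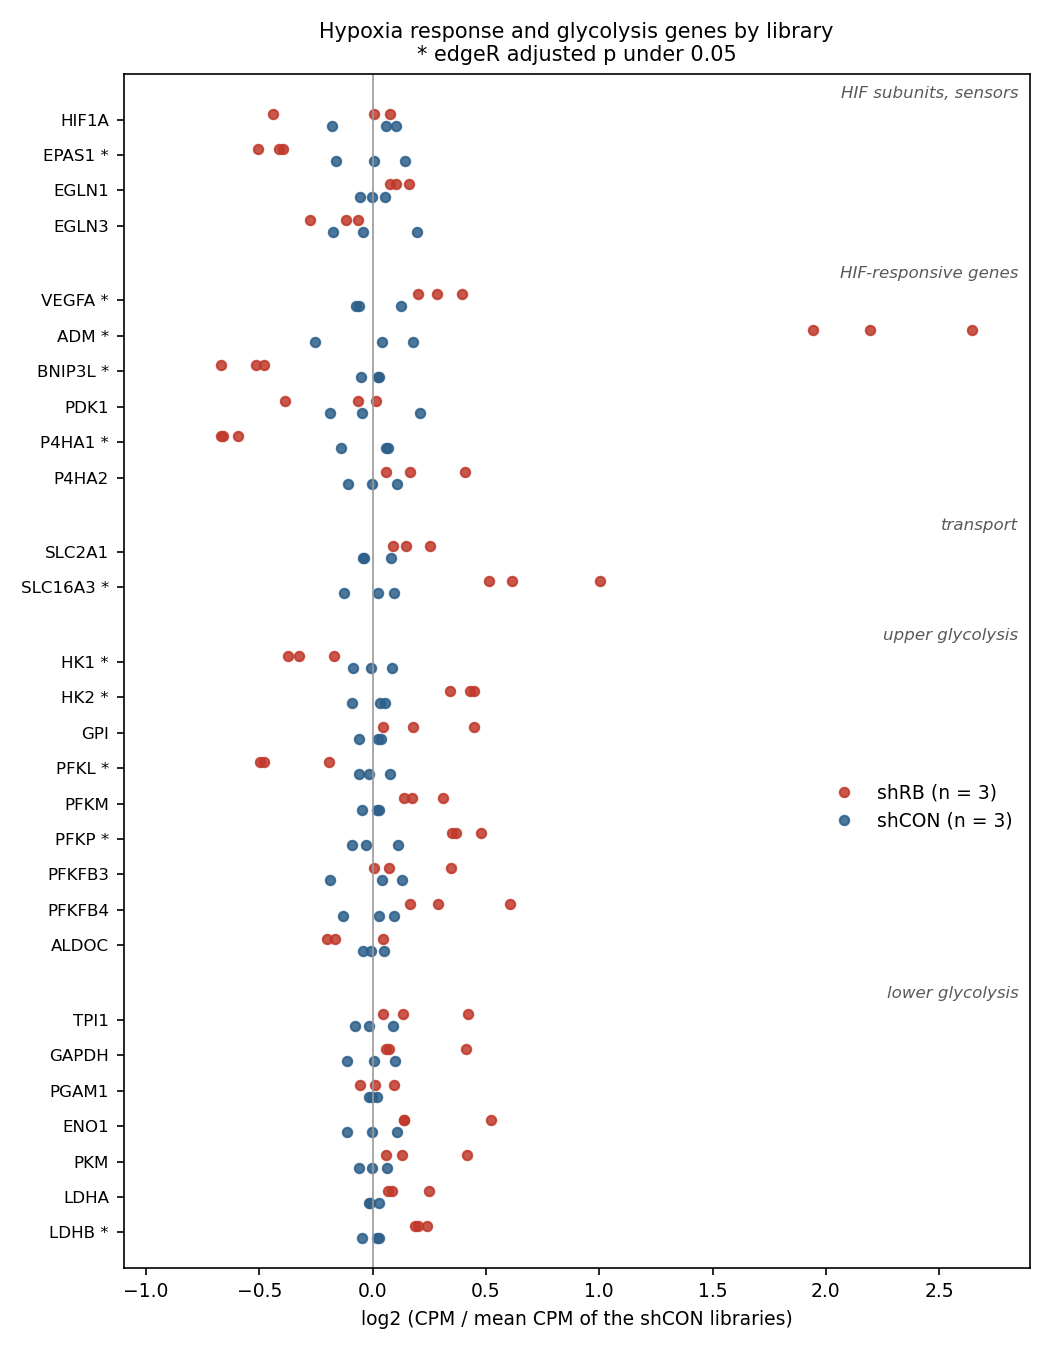
Each of the 28 tested genes is shown in the 3 shRB (red) and 3 shCON (blue) libraries as log2 of its CPM over the mean of the shCON libraries, ordered by role; stars mark an edgeR adjusted p under 0.05. ADM stands far to the right of the other genes, P4HA1 and BNIP3L sit left of all shCON points, and in most genes of lower glycolysis 1 shRB library, shRB 2, lies apart from the other shRB libraries on the right.

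The messages of the HIF alpha subunits differed in what they showed. HIF1A (ENST00000337138, chromosome 14), the widely expressed alpha subunit, measured 189.2, 132.1 and 180.0 CPM in shRB and 186.7, 158.5 and 192.6 CPM in shCON. The groups overlapped and the log2 fold change was −0.10 ± 0.12 (SE, adjusted p = 0.58). Without shRB 2, the lowest library, the value for HIF1A turned to 0.052. EPAS1 (ENST00000263734, chromosome 2), which encodes HIF-2 alpha, measured 9.74, 10.4 and 10.5 CPM in shRB and 12.4, 15.3 and 13.9 CPM in shCON. Every shRB library was below every shCON library, and EPAS1 fell by 0.42 ± 0.13 on the log2 scale (adjusted p = 0.031). That call was lost with DESeq2 (adjusted p = 0.095) and when shRB 1, shRB 3, shCON 2 or shCON 3 was left out, with adjusted p-values up to 0.125. Per length, HIF1A was the far more abundant of the pair, at 83.2 TPM (the level scaled to transcript length and library total) in shRB and 89.9 TPM in shCON, against 3.84 TPM in shRB and 5.25 TPM in shCON for EPAS1.

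The oxygen sensors did not pass the test. EGLN1 (PHD2), the main prolyl hydroxylase for HIF, measured 62.1, 58.6 and 59.7 CPM in shRB and 55.5, 53.5 and 57.8 CPM in shCON. All shRB values of EGLN1 were above those of shCON, but the log2 fold change of 0.11 ± 0.08 did not pass (adjusted p = 0.33). EGLN3 (PHD3), itself induced by HIF in many cells, overlapped between groups at 23.0, 20.6 and 23.9 CPM in shRB and 24.2, 22.1 and 28.6 CPM in shCON (log2 fold change −0.13 ± 0.12, adjusted p = 0.44). Of 9 further tested genes that control HIF, from a list of 13 that includes partners, cofactors and degradation factors, 0 rose, 1 fell and 8 did not pass. The share called was 11.1%, against 25.3% of all tested rows. The 1 that fell was ARNT, the partner of both alpha subunits, at 64.8 ± 5.08 CPM in shRB and 77.6 ± 1.07 CPM in shCON (SD, n = 3 each), a log2 fold change of −0.26 (edgeR adjusted p = 0.036) that was lost in 5 of 18 alternative fits.

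Among secreted products of the hypoxia response, ADM moved most and VEGFA little. ADM (ENST00000278175, chromosome 11) encodes adrenomedullin, a vasodilator peptide. It measured 3.00, 4.88 and 3.58 CPM in shRB and 0.884, 0.804 and 0.654 CPM in shCON. The lowest shRB library was above 3 times the highest shCON library, and ADM rose by a log2 fold change of 2.19 ± 0.28 (adjusted p = 8.7e-05). The reads behind these levels were few, at 33, 46 and 37 counts in shRB and 18, 8 and 4 counts in shCON. VEGFA (ENST00000372067, chromosome 6), the main vascular endothelial growth factor, measured 55.7, 48.7 and 51.7 CPM in shRB and 40.3, 40.7 and 46.2 CPM in shCON. Its groups did not overlap, with a log2 fold change of 0.31 ± 0.09 (adjusted p = 0.031), which was lost when shRB 1, shRB 3, shCON 1 or shCON 2 was left out (adjusted p up to 0.152). ADM passed in all 18 alternative fits, with log2 fold changes between 1.99 and 2.35.

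CA9, an acid-balancing carbonic anhydrase that depends strongly on HIF, had 1 count in all shRB libraries together and 1 in all shCON libraries. A difference in CA9 was not detectable at this depth. PLOD2, a collagen lysyl hydroxylase, had 6 counts in shRB and 10 in shCON and was not tested. SLC2A3 (GLUT3) had 0 counts in every library, which allows up to 0.273 to 0.318 CPM in single shRB libraries and 0.147 to 0.49 CPM in single shCON libraries at a limit of 3 counts, for counting error only.

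Of the HIF-responsive regulators of mitochondria, BNIP3L fell and PDK1 did not pass the test. BNIP3L (ENST00000380629, chromosome 8), also called NIX, is a receptor that marks mitochondria for removal by autophagy. BNIP3L measured 196.7, 177.0 and 201.8 CPM in shRB, against 285.5, 271.4 and 287.1 CPM in shCON. Its shRB libraries were all well below those of shCON, and it fell by 0.55 ± 0.07 on the log2 scale (adjusted p = 0.00012), passing in all 18 alternative fits. PDK1, the kinase that switches off pyruvate dehydrogenase, overlapped between groups at 21.5, 17.2 and 22.7 CPM in shRB and 21.7, 19.7 and 26.0 CPM in shCON (log2 fold change −0.11 ± 0.13, adjusted p = 0.58).

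The collagen prolyl 4-hydroxylases, which stabilise collagen in the endoplasmic reticulum, showed opposite signs. P4HA1 (ENST00000263556, chromosome 10) measured 72.4, 71.9 and 75.7 CPM in shRB and 119.9, 103.9 and 119.1 CPM in shCON. The groups were widely separated, and P4HA1 fell by 0.64 ± 0.08 on the log2 scale (adjusted p = 8.3e-05), passing in all 18 alternative fits. P4HA2, the second alpha subunit, measured 23.1, 27.4 and 21.5 CPM in shRB and 19.1, 22.2 and 20.6 CPM in shCON. These overlapped, with a log2 fold change of 0.22 ± 0.12 (adjusted p = 0.19), and P4HA2 shares 16.4% of its exon bases with an antisense gene. The log2 ratio of P4HA1 to P4HA2 per length was 1.85 ± 0.21 in shRB and 2.70 ± 0.22 in shCON (SD, n = 3 each), without overlap (two-sided exact permutation p = 0.1, the smallest that 3 against 3 allows).

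At the cell surface, the entry carrier for glucose did not pass and the exit carrier for lactate rose. SLC2A1 (GLUT1), the basal glucose transporter, measured 66.7, 71.7 and 64.1 CPM in shRB and 58.4, 63.6 and 58.7 CPM in shCON. Its log2 fold change was 0.16 ± 0.08 (adjusted p = 0.17), with shRB libraries all above those of shCON. SLC16A3 (ENST00000581287, chromosome 17), or MCT4, exports lactate from strongly glycolytic cells and measured 5.19, 6.79 and 4.83 CPM in shRB and 3.44, 3.62 and 3.10 CPM in shCON. All shRB libraries lay above all shCON libraries, and SLC16A3 rose by a log2 fold change of 0.70 ± 0.19 (adjusted p = 0.015). The level rests on 57, 64 and 50 counts in shRB and 70, 36 and 19 counts in shCON, and the call was lost with DESeq2 (adjusted p = 0.067) and without shCON 1 (adjusted p = 0.065). Of its exon bases, 9.98% overlap CSNK1D on the opposite strand.

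The hexokinases, which commit glucose to the cell as glucose 6-phosphate, moved in opposite directions. HK1 (ENST00000359426, chromosome 10), the housekeeping form, measured 166.3, 191.2 and 171.7 CPM in shRB and 202.9, 228.7 and 214.5 CPM in shCON. Every shRB library was lower, and HK1 fell by 0.29 ± 0.08 on the log2 scale (adjusted p = 0.017), a call lost when shRB 1, shRB 3, shCON 2 or shCON 3 was left out (adjusted p up to 0.086). HK2 (ENST00000290573, chromosome 2), the form induced by insulin and hypoxia and abundant in many tumours, measured 27.1, 28.9 and 29.2 CPM in shRB and 22.2, 20.1 and 21.9 CPM in shCON. HK2 rose by a log2 fold change of 0.40 ± 0.10 (adjusted p = 0.010) and passed in all 18 alternative fits. HK1 stayed by far the larger part of the step in both groups. HK2 held 9.15 ± 0.50% of hexokinase TPM in shRB and 5.87 ± 0.61% in shCON. The summed HK1 and HK2 level was 104.2 ± 3.70 TPM in shRB and 124.5 ± 4.74 TPM in shCON, 16.3% lower in shRB without overlap (exact permutation p = 0.1).

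Phosphofructokinase, the main regulated step of glycolysis, is a tetramer of liver (PFKL), muscle (PFKM) and platelet (PFKP) subunits. PFKL (ENST00000349048, chromosome 21) measured 225.9, 275.1 and 222.9 CPM in shRB and 301.7, 331.7 and 311.4 CPM in shCON, and fell by 0.38 ± 0.09 on the log2 scale (adjusted p = 0.0059). PFKP (ENST00000381125, chromosome 10) measured 99.5, 107.3 and 98.3 CPM in shRB and 75.6, 83.4 and 72.4 CPM in shCON, and rose by a log2 fold change of 0.40 ± 0.08 (adjusted p = 0.0032). Both separated the groups fully and both passed in all 18 alternative fits. PFKM measured 176.7, 194.6 and 172.6 CPM in shRB and 159.9, 159.0 and 151.8 CPM in shCON, also without overlap, but its log2 fold change of 0.21 ± 0.07 did not pass (adjusted p = 0.056).

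The makeup of the phosphofructokinase pool did not overlap between groups, while its total did. PFKL made up 46.6 ± 1.53% of phosphofructokinase TPM in shRB and 58.2 ± 1.03% in shCON. PFKP made up 21.6 ± 0.82% in shRB and 15.6 ± 0.55% in shCON, and PFKM 31.7 ± 0.72% in shRB and 26.2 ± 1.0% in shCON. The summed level was 343.1 ± 12.3 TPM in shRB and 364.7 ± 11.8 TPM in shCON, and the libraries overlapped (exact permutation p = 0.2).

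**Figure D2:**
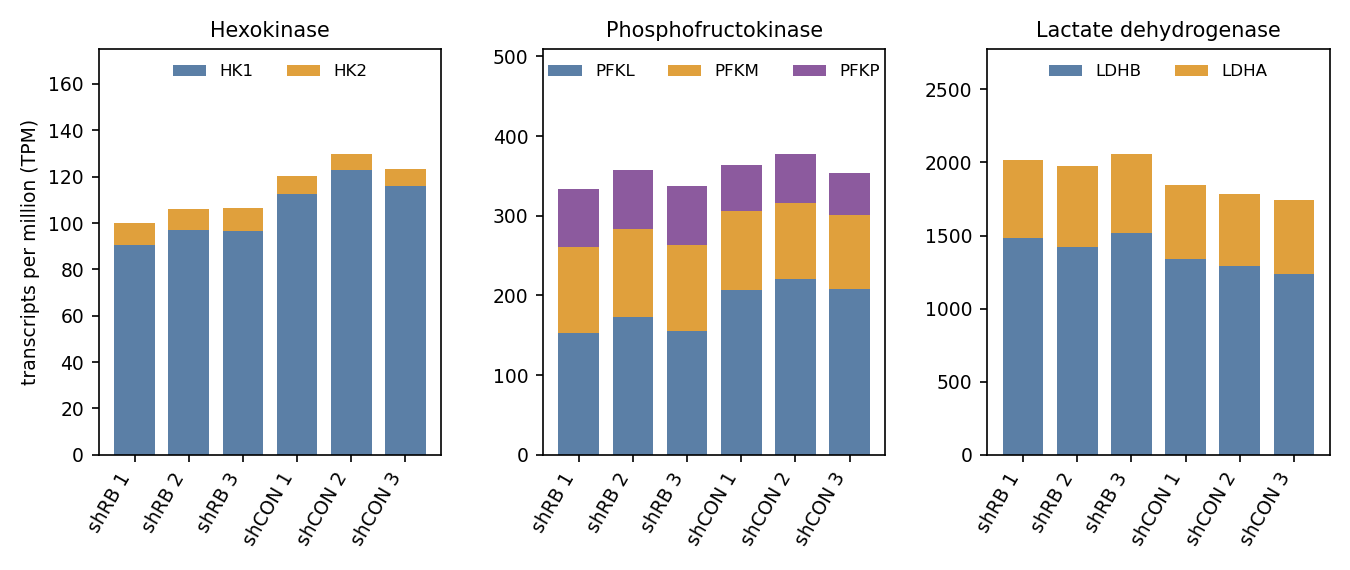
Stacked bars give the TPM of the isozymes at 3 steps (hexokinase, phosphofructokinase and lactate dehydrogenase) in each library, the shRB libraries left of the shCON libraries. The hexokinase bars are shorter and the lactate dehydrogenase bars taller in every shRB library, while the phosphofructokinase bars overlap in height and hold less PFKL and more PFKP in shRB.

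Of 11 pairs listed, 8 could be computed, and 5 of them did not overlap between groups. Among single tested rows 41.1% did not overlap, and no such share was computed for ratios of other genes. The log2 ratio of HK2 to HK1 was −3.31 ± 0.087 in shRB and −4.01 ± 0.162 in shCON, a difference of 0.70. For PFKP to PFKL it was −1.11 ± 0.10 in shRB and −1.90 ± 0.06 in shCON, a difference of 0.79. The other pairs without overlap were PFKP to PFKM (difference 0.19), P4HA1 to P4HA2 (−0.85) and EGLN3 to EGLN1 (−0.26). Each of these 5 had the smallest two-sided exact permutation p that 3 against 3 libraries allows, 0.1, and an adjusted p of 0.16 over the 8 pairs, so none can pass at this size. PFKFB4 to PFKFB3, LDHA to LDHB and EPAS1 to HIF1A overlapped, with differences of 0.21, −0.08 and −0.32.

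PFKFB3 and PFKFB4 make and break down fructose 2,6-bisphosphate, the activator of phosphofructokinase. PFKFB3 measured 21.4, 16.9 and 17.7 CPM in shRB and 14.8, 18.4 and 17.3 CPM in shCON, overlapping between groups (log2 fold change 0.17 ± 0.13, adjusted p = 0.38). PFKFB4 measured 10.5, 14.2 and 11.4 CPM in shRB and 9.52, 8.54 and 9.97 CPM in shCON. PFKFB4 was higher in every shRB library, with a log2 fold change of 0.36 ± 0.15 that did not pass (adjusted p = 0.087). Its 20 nearest tested neighbours on chromosome 3 had a median log2 fold change of 0.26, and 19 of them were above 0.

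PFKL lies on chromosome 21, where most tested rows were lower in shRB. Of 123 tested rows on that chromosome, 78 fell (63.4%, against 12.5% of all rows) and 0 rose, and 116 had a log2 fold change below 0. Their median was −0.38, which is also the log2 fold change of PFKL and the median of its 20 nearest tested neighbours, 18 of which were below 0. Of the 122 other rows, 59 were lower than PFKL. The value of PFKL thus sat in the middle of its chromosome, and the part of this chromosome-wide difference in the PFKL result was not tested. For the other 4 genes that fell, the medians over their 20 nearest tested neighbours were 0.07 for BNIP3L, −0.07 for P4HA1, 0.08 for HK1 and −0.17 for EPAS1. For the genes that rose, the same medians were −0.11 for ADM, −0.09 for HK2, −0.12 for PFKP (17 neighbours), 0.12 for VEGFA, −0.16 for LDHB and 0.06 for SLC16A3.

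**Figure D3:**
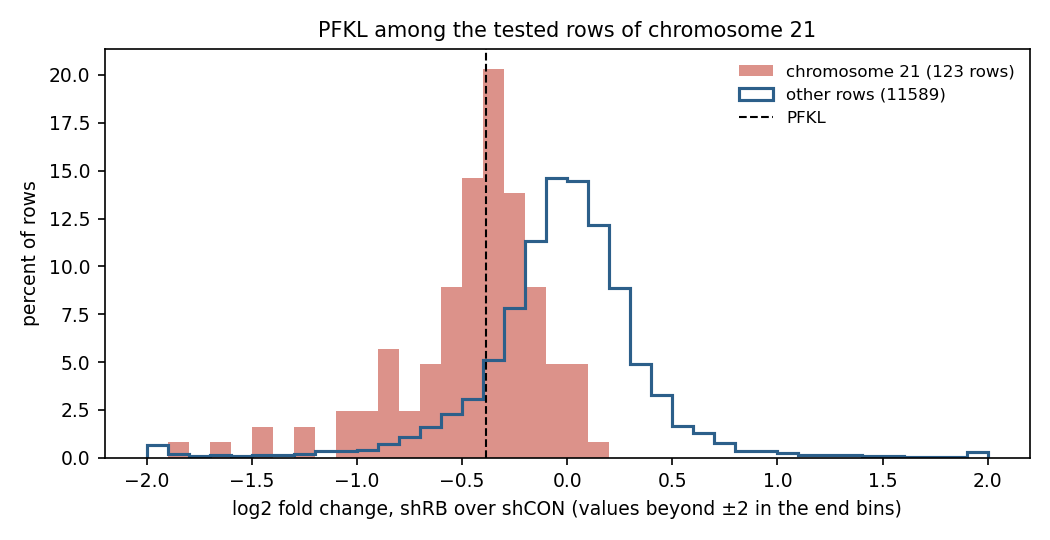
The red histogram gives the percent of the 123 tested rows of chromosome 21 by log2 fold change (shRB over shCON), the blue outline that of all other tested rows, and the dashed line PFKL. The red bars centre on −0.38, where PFKL lies, with 116 of the 123 rows below 0, while the outline centres near 0.

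The remaining enzymes of upper glycolysis showed no call. GPI, which turns glucose 6-phosphate into fructose 6-phosphate, measured 871.6, 1151 and 955.0 CPM in shRB and 808.7, 866.2 and 858.4 CPM in shCON. Its lowest shRB library only just cleared the highest shCON library, and the log2 fold change of 0.23 ± 0.09 did not pass (adjusted p = 0.086), though it did in 5 of 18 alternative fits. ALDOC, the brain form of aldolase, measured 143.3, 165.9 and 139.6 CPM in shRB and 156.0, 166.6 and 159.9 CPM in shCON, overlapping between groups (log2 fold change −0.10 ± 0.08, adjusted p = 0.38). Without shRB 2, the value for ALDOC was −0.18 and passed (adjusted p = 0.040).

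The enzymes of lower glycolysis, from triose phosphate to pyruvate, all had small positive values, and 0 of 5 passed in the fit to all 6 libraries. TPI1, which interconverts the triose phosphates, measured 1297, 1583 and 1219 CPM in shRB and 1119, 1256 and 1168 CPM in shCON (log2 fold change 0.21 ± 0.10, adjusted p = 0.13). GAPDH, which oxidises glyceraldehyde 3-phosphate and is often used as a loading control, measured 5171, 6589.5 and 5208 CPM in shRB and 4588, 5316 and 4978 CPM in shCON (0.19 ± 0.10, adjusted p = 0.19). In both, shRB 2 stood well above the other 5 libraries, and the groups overlapped in CPM. In TPM, GAPDH overlapped, while TPI1 did not (higher in shRB, exact permutation p = 0.1). PKM (higher in shRB) and ALDOC (lower) did not overlap in TPM either (exact permutation p = 0.1 each). For a single gene, TPM differs from CPM only in library scaling, which here had no TMM factors. ENO1, the enolase of most tissues, measured 1568, 2046 and 1567 CPM in shRB and 1317, 1535 and 1420 CPM in shCON, without overlap, and a log2 fold change of 0.28 ± 0.10 (adjusted p = 0.066). ENO1 passed in 7 of 18 alternative fits, among them DESeq2 (adjusted p = 0.041), no filter on low counts (adjusted p = 0.0053) and those without shRB 1 or shRB 3 (adjusted p = 0.0485 and 0.0466).

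PKM, pyruvate kinase, measured 2005.5, 2576 and 2109 CPM in shRB and 1850.1, 2011 and 1923 CPM in shCON (log2 fold change 0.21 ± 0.09, adjusted p = 0.12). PKM and TPI1 each passed in 4 of 18 alternative fits, among them those with no filter on low counts and with a GC offset. PKM had only 1 row, so its M1 and M2 splice forms cannot be told apart. PGAM1, the phosphoglycerate mutase, was nearly level, at 111.7, 123.9 and 116.7 CPM in shRB and 114.6, 117.5 and 115.8 CPM in shCON (log2 fold change 0.02 ± 0.07, adjusted p = 0.88). GAPDH, ENO1, PKM, TPI1 and LDHA have near-identical pseudogene copies with which reads may be shared, and 30.5% of the exon bases of GAPDH overlap a gene on the opposite strand.

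Lactate dehydrogenase interconverts pyruvate and lactate. LDHA, the subunit favoured in glycolytic cells, measured 652.5, 731.9 and 646.1 CPM in shRB and 608.3, 611.4 and 627.7 CPM in shCON, with a log2 fold change of 0.14 ± 0.07 (adjusted p = 0.19). LDHB (ENST00000350669, chromosome 12), the heart form, measured 983.2, 1011 and 975.3 CPM in shRB and 872.5, 868.4 and 827.2 CPM in shCON. Both subunits were higher in every shRB library, and LDHB rose by a log2 fold change of 0.21 ± 0.07 (adjusted p = 0.038). The LDHB call was lost in 7 of 18 alternative fits, among them those leaving out shRB 1, shRB 3 and each shCON library in turn (adjusted p up to 0.168), and 76.5% of its exon bases overlap another gene on the same strand. LDHB made up 73.1% of lactate dehydrogenase TPM in shRB and 72.0% in shCON. The summed level was 2014 ± 41.2 TPM in shRB and 1790 ± 49.5 TPM in shCON, 12.5% higher in shRB without overlap (exact permutation p = 0.1).

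Per length, the levels of the enzymes spanned a wide range. GAPDH led with 8100 ± 740 TPM in shRB and 7217 ± 416 TPM in shCON (SD, n = 3 each). TPI1 followed at 2142 ± 185 TPM in shRB and 1882 ± 83.2 TPM in shCON, then ENO1 at 1871 ± 201 TPM in shRB and 1568 ± 95.8 TPM in shCON and PKM at 1858 ± 166 TPM in shRB and 1632 ± 43.8 TPM in shCON. TPI1 was above both ENO1 and PKM in every library, and PKM was above ENO1 in every shCON library, while their order in shRB differed between libraries. LDHB reached 1472 ± 48.8 TPM in shRB and 1290 ± 50.5 TPM in shCON, and GPI 939.8 ± 96 TPM in shRB and 812.1 ± 16.6 TPM in shCON. PGAM1 was the least abundant of the tested members in lower glycolysis, at 124.3 ± 4.49 TPM in shRB and 124.4 ± 0.906 TPM in shCON, below GPI and ALDOC of the upper part. HK2 was the least abundant of the tested members that catalyse a step of glycolysis, at 9.54 ± 0.60 TPM in shRB and 7.28 ± 0.49 TPM in shCON.

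The small positive values of the glycolysis enzymes rested in part on library shRB 2. It was the highest of the 3 shRB libraries for 18 of the 28 tested genes, for 14 of the 16 tested glycolysis enzymes and for all 5 of lower glycolysis. Without it, the log2 fold changes were 0.15 for ENO1, 0.12 for GPI, 0.10 for TPI1, 0.10 for PKM and 0.07 for GAPDH. The calls of the group were 6 higher and 6 lower without it, against 6 and 5 with it, since ALDOC joined those that fell. Library shRB 2 was little apart for LDHB and HK2, where its level was 0.05 and 0.04 log2 units above the mean of the other shRB libraries, against 0.38 for ENO1.

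The same library stood apart by base composition. Across the 28 genes, the Spearman correlation between GC content and a library's deviation from its group mean was −0.701, 0.736 and −0.661 for shRB 1 to 3, and −0.283, 0.582 and −0.573 for shCON 1 to 3. Across all tested rows with a GC value it was −0.504, 0.687 and −0.539 for shRB and −0.506, 0.522 and −0.0865 for shCON. Genes are not independent replicates, so these are descriptions of the libraries. With a GC trend removed from each library, 15 of the 28 genes were higher and 5 lower (edgeR with the GC offset, where 23.2% of all tested rows were higher and 16.9% lower). The genes that joined were EGLN1, SLC2A1, GPI, PFKM, PFKFB4, TPI1, ENO1, PKM and LDHA, with adjusted p-values between 0.0037 and 0.0431. GAPDH did not pass there (adjusted p = 0.0687).

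**Figure D4:**
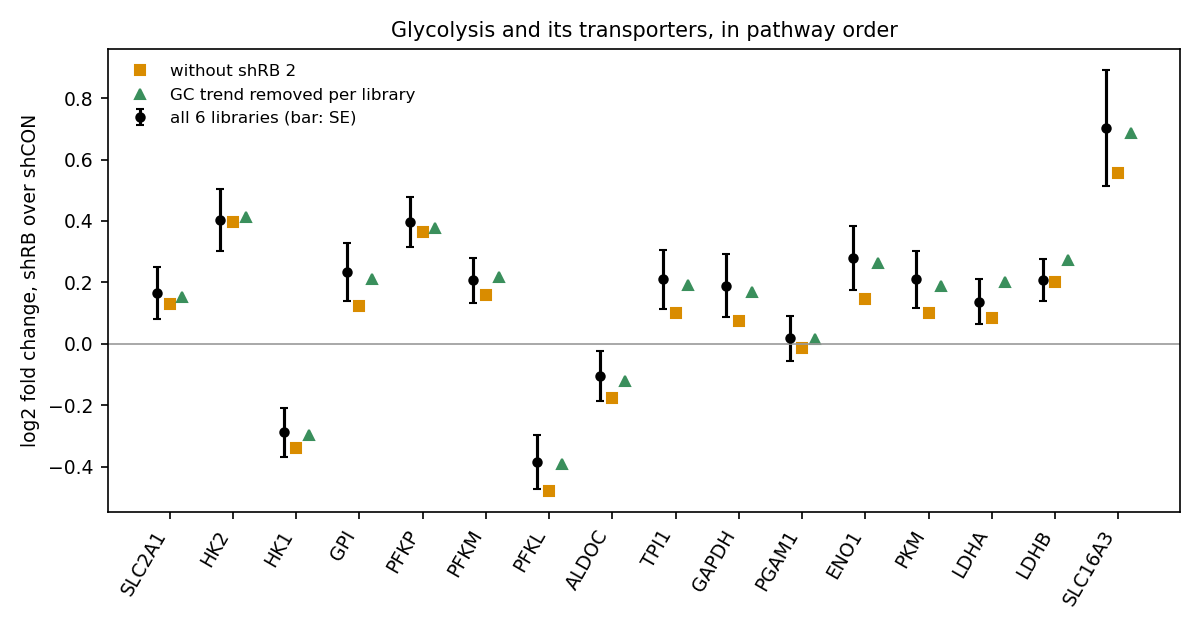
Log2 fold changes (shRB over shCON) of the tested carriers and glycolysis enzymes are shown in pathway order from all 6 libraries (black, bar is the SE), without shRB 2 (orange) and with a GC trend removed from each library (green). Without shRB 2, ENO1 lies at 0.15 in place of 0.28 and GAPDH at 0.07 in place of 0.19, while HK2 and LDHB hardly move.

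**Figure D5:**
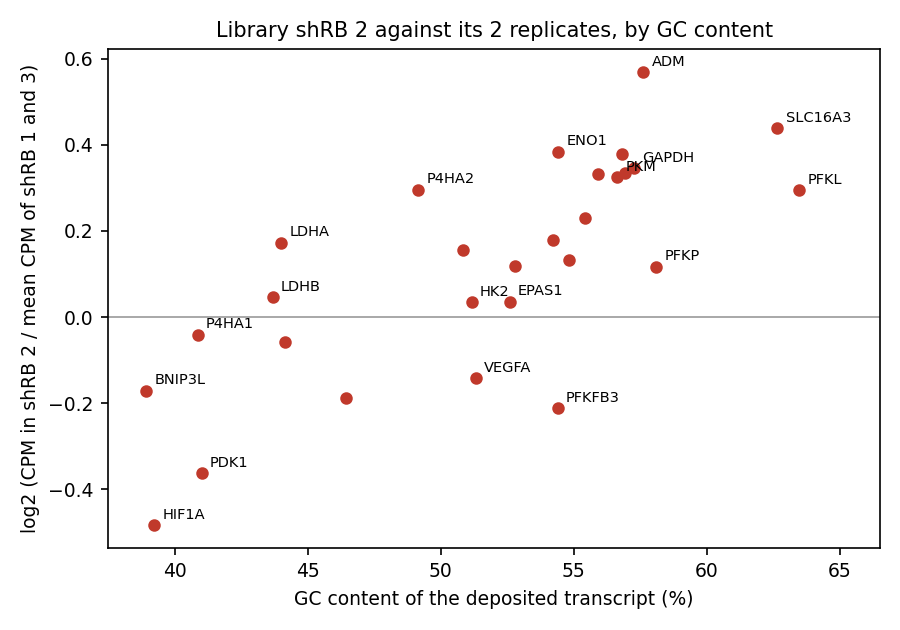
For each tested gene of the group, the deviation of library shRB 2 from the mean of shRB 1 and 3 (log2 units) is plotted against the GC content of its transcript in percent. Genes of higher GC content lie higher, with ADM (0.57), SLC16A3 (0.44) and ENO1 (0.38) above 0 and HIF1A (−0.48) and PDK1 (−0.36) below it.

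Beyond these genes, other hypoxia-induced genes also split. Of 38 further genes known to rise in low oxygen, 35 had a row and 27 were tested. Of the 27, 6 rose, 5 fell and 16 did not pass the test, with a median log2 fold change of −0.17 against −0.0062 over all rows. The share called was 40.7%, against 25.3% of all tested rows. Those that rose included TFRC, the transferrin receptor, at 541.6 CPM in shRB and 399.2 CPM in shCON (log2 fold change 0.44, edgeR adjusted p = 0.00062). DDIT4 (REDD1), an inhibitor of mTORC1, averaged 260.9 CPM in shRB and 197.4 CPM in shCON (0.40, adjusted p = 0.00075). BHLHE40, a transcriptional repressor, averaged 18.6 CPM in shRB and 12.8 CPM in shCON (0.54, adjusted p = 0.0064). STC2, a secreted stanniocalcin, averaged 58.7 CPM in shRB and 45.1 CPM in shCON (0.38, adjusted p = 0.0058). JMJD6, a lysyl hydroxylase, averaged 31.7 CPM in shRB and 24.4 CPM in shCON (0.38, adjusted p = 0.013), a call lost in 3 of 18 alternative fits. ZNF395 was the sixth, and its call was lost without shCON 1 (adjusted p = 0.0887). These rises were of the same small order as those of HK2 and VEGFA. TFRC and BHLHE40 lie on chromosome 3, as does TMEM45A, which fell. Of 663 tested rows on that chromosome, 188 rose and 40 fell, with a median log2 fold change of 0.15. The part of this chromosome-wide difference in the TFRC and BHLHE40 results was not tested.

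The genes of that list that fell were FUT11, TMEM45A, MXI1, NDRG1 and AK4. FUT11, a fucosyltransferase, averaged 11.96 CPM in shRB and 17.95 CPM in shCON (log2 fold change −0.59, adjusted p = 0.0083). TMEM45A, a transmembrane protein, averaged 3.17 CPM in shRB and 5.34 CPM in shCON (−0.75, adjusted p = 0.0085). MXI1, a MYC antagonist, averaged 80.01 CPM in shRB and 101.7 CPM in shCON (−0.35, adjusted p = 0.013). NDRG1, which is induced by androgen as well as by hypoxia, averaged 75.1 CPM in shRB and 91.7 CPM in shCON (−0.29, adjusted p = 0.013). AK4, a mitochondrial adenylate kinase, averaged 127.9 CPM in shRB and 147.5 CPM in shCON (−0.20, adjusted p = 0.045). Of these calls, FUT11 held in all 18 alternative fits, while AK4 was lost in 9, NDRG1 in 3, MXI1 in 2 and TMEM45A with DESeq2.

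The isozymes and regulators of glycolysis that are not among the 34 genes gave 1 rise and 2 falls among 13 tested of 29 listed. The share called was 23.1%, near the 25.3% of all tested rows. ENO2, the neuronal enolase, fell to 64.4 ± 6.99 CPM in shRB, against 84.6 ± 1.12 CPM in shCON (SD, n = 3 each; log2 fold change −0.39, edgeR adjusted p = 0.0054), and held in all 18 alternative fits. SLC2A4 (GLUT4), the insulin-responsive glucose transporter, averaged 3.68 CPM in shRB and 5.85 CPM in shCON (−0.66, adjusted p = 0.0098), a call lost with DESeq2. PGM1, which links glycogen to glucose 6-phosphate, averaged 112.4 CPM in shRB and 89.5 CPM in shCON (0.33, adjusted p = 0.014), a call lost without shCON 1. ENO1, the sister enzyme of ENO2, had a positive value that did not pass.

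Of 12 tested genes that carry pyruvate into mitochondria or regulate its use, 1 rose, 1 fell and 10 did not pass. PDHA1, a subunit of pyruvate dehydrogenase, averaged 120.6 CPM in shRB and 101.6 CPM in shCON (log2 fold change 0.25, edgeR adjusted p = 0.045), a call lost in 7 of 18 alternative fits. PC, pyruvate carboxylase, averaged 70.2 CPM in shRB and 89.7 CPM in shCON (−0.35, adjusted p = 0.023), a call lost in 4. Across the lists, 72 genes were tested, 9 rose, 10 fell and 53 did not pass. The share called was 40.7% in the hypoxia-induced list and 17.8% in the other lists together (8 of 45), against 25.3% of all tested rows.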

How the data were processed

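RNA was sequenced from 3 shRB and 3 shCON libraries of LNCaP cells (total RNA, TruSeq RNA Sample Prep Kit, per the labels). The authors deposited raw counts, 1 whole number per Ensembl transcript ID and library. The submitters' processing notes name STAR, HOMER, edgeR and build hg19, without roles or versions. Annotation, counting options and strand handling: not given in the sources used here. IDs were matched to GENCODE release 29 (22182 of 22279, with 0.377% of counts in the 97 others), which describes another build. It gave only names, chromosomes, gene order, exon overlaps, length and GC content. The overlaps may thus differ from those in the annotation used for counting.

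Rows were filtered with filterByExpr (minimum count 10, minimum total 15), normalised by TMM and tested across all 11712 kept rows with edgeR 4.0.16 in R 4.3.3 (quasi-likelihood F test, group as the only term, Benjamini-Hochberg adjustment, threshold 0.05). The standard error is the absolute log2 fold change over the root of F. Levels are CPM on the TMM-adjusted total. TPM was computed from transcript length without TMM factors, for comparisons between genes and for the shares and sums of steps. Isozyme ratios (pseudocount 0.5) and summed steps were compared by two-sided exact permutation tests over libraries. The limits given for 0 counts cover counting error only, while SE and SD include the spread between libraries. On simulated counts the procedure recovered 22% of 1.25-fold changes, 68.8% of 1.5-fold, 95.8% of 2-fold and 100% of 4-fold changes. Of 154 calls there, 15 were false. In that simulation only a small part of the 11619 rows was changed, and libraries had no trend with GC content. In the data 25.3% of tested rows were called, so these rates may not carry over. Small changes can still be missed, and a gene that did not pass is not shown to be unchanged. No library pair agreed within sampling noise.

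The members and lists were chosen with earlier results of these data known. All members are accounted for, and genes of the other lists are given with values where they passed the test, up to 5 with the smallest p per list and direction. Alternatives were 3 other normalisations, 2 other filters, DESeq2 1.42.0, limma-voom (3.58.1), robust fitting, a GC trend offset, the replicate number as a block, the 20 most abundant IDs left out, each library left out in turn, and an adjusted p under 0.01. Depth was 6115310 to 20091488 counts per library.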

Additional observations from a re-analysis of the deposited data

How the results depend on the processing

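Main counts were 6 members higher and 5 lower, 1499 rows higher and 1459 lower, and 9 other pathway genes higher and 10 lower. With the GC offset, 15 members, 2717 rows and 18 other pathway genes were higher, and with that offset and the replicate block 15, 2876 and 19. Deviations from the group mean correlated between same-numbered libraries at 0.235, 0.352 and −0.000318 for replicates 1 to 3. The best shCON partner was shCON 1 for shRB 1, shCON 2 for shRB 2 and shCON 1 for shRB 3. Whether same-numbered libraries belong together was not tested. With the replicate block alone, 12 members were higher, 2294 rows lower and 16 other pathway genes lower. DESeq2 left 6 other pathway genes lower. At an adjusted p under 0.01, 2 members, 787 rows and 5 other pathway genes were higher, and 3 members, 793 rows and 4 other pathway genes lower. Leaving out 1 library in turn gave 3 to 6 members higher (3 without shCON 1, the deepest) and 3 to 6 lower (3 without shRB 1, shRB 3, shCON 2 or shCON 3). It gave 863 to 2074 rows higher and 912 to 1956 lower, both lowest without shCON 1 and highest without shRB 2. Other pathway genes ranged from 5 to 13 higher (5 without shCON 1) and from 4 to 16 lower (4 without shCON 3, 6 without shRB 1 or shCON 1, 16 without shRB 2). The cause of these shifts was not tested. Log2 fold changes that turned were those of PGAM1 (−0.0071 with upper-quartile factors and −0.014 without shRB 2), HIF1A (0.052 without shRB 2) and PDK1 (0.0094 without shRB 2), none of which passed the test. With 1 library left out, they ranged from −0.014 to 0.054 for PGAM1, −0.197 to 0.052 for HIF1A and −0.193 to 0.0094 for PDK1. The median over members stayed between 0.112 and 0.221 in all 19 alternatives, and all 8 isozyme ratios kept their direction with CPM, no pseudocount and each library left out, though PFKFB4 to PFKFB3 ranged from 0.013 to 0.404. ADM, BNIP3L, P4HA1, HK2, PFKL and PFKP passed in all 18 alternative fits at 0.05. Few reads limit ADM and SLC16A3, and unknown strand use limits genes with overlapping partners.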

Other observations

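Side branches of glycolysis were measured too. Of 11 tested genes of the pentose phosphate and hexosamine branches, 1 rose, 1 fell and 9 did not pass the test (edgeR adjusted p under 0.05). The share called was 18.2%, against 25.3% of all tested rows. TKT, the transketolase that links the pentose phosphate pathway to glycolysis, averaged 711.8 ± 77.8 CPM in shRB and 551.8 ± 26.8 CPM in shCON (SD, n = 3 each), a log2 fold change of 0.37 (adjusted p = 0.0064) that passed in all 18 alternative fits. TKT lies on chromosome 3, where 188 of 663 tested rows rose and 40 fell, and the part of this in its result was not tested. PGM3, an enzyme of UDP-N-acetylglucosamine synthesis, averaged 36.9 ± 3.68 CPM in shRB and 46.9 ± 3.71 CPM in shCON (log2 fold change −0.35, adjusted p = 0.025). The PGM3 call was lost without shCON 1 and without shCON 3.

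The 31 genes with a row together held 1.437%, 1.682% and 1.452% of all counts in shRB 1 to 3, and 1.323%, 1.437% and 1.374% in shCON 1 to 3. The highest shCON library equalled the lowest shRB library at this precision.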
